A study of Mus musculus with 27 samples.

Results

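The collagen genes were followed in full-thickness colon of mice with and without a working Il10 gene. They were chosen by symbol alone: every annotated symbol made of Col, a type number, a and a chain number. This gave 42 genes of the 18193 with a symbol of their own on the array. RefSeq lists 44 genes of this form in the mouse, and the remaining 2, Col6a6 and Col28a1, were not measured. Each gene is represented by its probe set with the highest mean over the 27 arrays, and 27 of the 42 had more than 1 probe set.

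The study took colon from 3 kinds of mice aged 7, 9 or 12 weeks, with 3 arrays in each of the 9 groups. The kinds were Il10 -/- mice kept conventionally (labelled CC), Il10 -/- mice kept specific pathogen free (SPF), and wild-type mice kept conventionally (WT). The sources used here do not spell out CC, which was taken to be the conventional knockouts because no other of the 3 kinds is left for it. The sources used here name neither the knockout allele nor the strain. SPF wild types were not analysed here, so SPF knockouts differ from wild types in genotype and housing together. The authors picked the replicates of each group by colon length and colonic damage. Whether a sample is 1 animal or a pool is not stated in the labels, so p-values measure the spread between these samples, which may be technical.

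Collagens are the main structural proteins of the extracellular matrix, each built as a triple helix of alpha chains encoded by separate genes. Fibrillar types I, III and V carry the tensile strength of the intestinal submucosa, and fibril-associated types sit on their surface. Type IV forms the sheet of every basement membrane, and type VI forms beaded filaments around cells. In the gut these chains come mainly from fibroblasts and smooth muscle cells, with basement membrane chains also made by endothelium and epithelium. IL-10 is a cytokine that restrains inflammation, and in mice its loss leads to colitis that depends on the gut microbiota.

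The values are the authors' normalized log2 expression, and the medians of the arrays lay between 4.92 and 4.99. The single Il10 probe set read 4.80 to 6.35 in the 9 conventional knockout arrays and 4.66 to 7.09 in the 9 SPF knockout arrays, against 3.51 to 3.83 in the 9 wild-type arrays. Its position relative to the deleted part is not known, so it does not check the genotype. The mean of 10 epithelial markers was 11.9 to 12.7 and that of 10 smooth muscle markers was 9.02 to 10.90 over the 27 arrays, so both layers of a full-thickness colon were present. Some arrays stood apart from their group. In the 12-week SPF knockouts, replicate 2 had a neutrophil marker mean of 4.999, against 7.35 and 8.13 in the others, and a smooth muscle mean of 10.24, against 9.33 and 9.02. In the 9-week SPF knockouts, replicate 3 had a neutrophil mean of 5.92, against 3.87 and 4.16. Replicate 2 of the 12-week wild types had a log2 difference of 0.946 between its 3' and 5' actin probe sets, where the next array had 0.715. The next arrays, at 0.715, 0.662, 0.649 and 0.622, were wild types too. This difference was 0.503 to 0.946 in wild types and 0.374 to 0.619 in knockouts. For Gapdh it was -0.143 to 0.05 in wild types and -0.099 to 0.108 in knockouts. The part of RNA quality in the differences from wild types was not tested. The number of arrays limits the precision of every value that follows.

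Of the 42 collagen genes, 23 had at least 1 group mean above 4.96, the median of all values, and 19 did not. The 19 low genes were Col2a1, Col4a3, Col4a4, Col6a5, Col7a1, Col8a2, Col9a1, Col9a2, Col9a3, Col10a1, Col11a1, Col11a2, Col13a1, Col17a1, Col19a1, Col20a1, Col22a1, Col24a1 and Col26a1. The genes of types II, IX, X and XI, collagens known from cartilage, were all among them, and 5 of 7 markers of cartilage and bone had a mean over the arrays below 4.96. The other 2 were Sox9, at 7.43, and Sp7, at 5.23, and the mean of the list was 4.19 to 4.46 over the arrays. A low value on these arrays does not show that a gene is off.

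Promoter sequence is shown for 4 of the genes with called differences: Col18a1, which rose, and Col8a1, Col16a1 and Col6a1, which fell in at least 1 comparison. They are not the 4 largest differences. Col4a5 and Col23a1, not shown, fell further than Col16a1 and Col6a1 in 12-week SPF knockouts against wild types. RefSeq (GRCm38.p6) promoter entries matched 33 of the 42 genes with 36 start sites, and the 250 bases upstream of each start were searched on both strands. Col1a1, Col2a1, Col4a3, Col5a2, Col9a3, Col12a1, Col14a1, Col22a1 and Col26a1 had no entry. Capitals mark the letters of a GC box, written GGGCGG, of a CCAAT box, of a TATA box, written TATAAA, or of an AP-1 type site, written TGANTCA, on either strand. Each line runs 5′ to 3′ on the minus strand, except Col16a1 on the plus strand.
Col18a1, upstream start: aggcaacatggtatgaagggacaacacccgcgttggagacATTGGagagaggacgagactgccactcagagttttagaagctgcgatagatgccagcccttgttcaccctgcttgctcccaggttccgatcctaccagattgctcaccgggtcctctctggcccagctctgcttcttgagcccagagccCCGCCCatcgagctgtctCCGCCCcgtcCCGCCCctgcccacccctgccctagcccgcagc
Col18a1, downstream start: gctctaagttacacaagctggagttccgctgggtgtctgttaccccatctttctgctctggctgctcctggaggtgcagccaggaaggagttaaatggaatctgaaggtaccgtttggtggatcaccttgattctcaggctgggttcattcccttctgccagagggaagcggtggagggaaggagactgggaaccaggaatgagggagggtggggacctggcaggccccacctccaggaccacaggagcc
Col8a1: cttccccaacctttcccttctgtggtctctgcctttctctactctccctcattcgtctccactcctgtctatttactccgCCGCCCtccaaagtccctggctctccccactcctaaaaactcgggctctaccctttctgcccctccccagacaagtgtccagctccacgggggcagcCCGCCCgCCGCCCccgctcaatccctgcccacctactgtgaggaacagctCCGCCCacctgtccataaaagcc
Col16a1: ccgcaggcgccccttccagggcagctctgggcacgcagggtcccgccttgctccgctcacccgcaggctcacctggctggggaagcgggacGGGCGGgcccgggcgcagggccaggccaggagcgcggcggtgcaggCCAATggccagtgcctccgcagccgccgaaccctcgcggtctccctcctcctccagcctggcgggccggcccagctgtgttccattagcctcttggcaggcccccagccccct
Col6a1: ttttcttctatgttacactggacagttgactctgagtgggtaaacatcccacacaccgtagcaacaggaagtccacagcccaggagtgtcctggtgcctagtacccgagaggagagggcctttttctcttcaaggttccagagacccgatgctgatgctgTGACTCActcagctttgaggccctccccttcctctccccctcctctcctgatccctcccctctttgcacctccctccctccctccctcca

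Col18a1 has entries for 2 start sites. The window at chr10:77166531-77166780 holds 1 CCAAT and 3 GC boxes, and the one at chr10:77113706-77113955 holds none of the motifs searched. The array values do not say which start was used. Col8a1 (chr16:57754738-57754987) holds 4 GC boxes, Col16a1 (chr4:130047590-130047839) 1 GC box and 1 CCAAT, and Col6a1 (chr10:76726045-76726294) 1 TGANTCA match. Over the 36 collagen windows, GGGCGG occurred in 58.3%, against 32.7% of all 32851 windows of the table. CCAAT occurred in 36.1% against 33.8%, TATAAA in 13.9% against 12.4%, TGANTCA in 2.78% against 6.75%, and a CArG box, the serum response factor site of smooth muscle genes, in 2.78% against 1.47%. Among the type IV genes, Col4a1 and Col4a2 lie head to head, and so do Col4a5 and Col4a6. Col4a3 and Col4a4, both on chromosome 1, were not compared because Col4a3 had no entry. The starts of Col4a1 and Col4a2 on chromosome 8 are 21 bases apart. The starts of Col4a5 and Col4a6 on chromosome X are 1343 bases apart.

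Differences between groups are log2 differences of group means ± SE from 1 limma model of all 27 arrays, and a gene is called where its p, adjusted by Benjamini and Hochberg's method over the 18193 genes, is under 0.05. Conventional knockouts and SPF knockouts were both set against the same wild types at each age, so both comparisons share those samples, and the comparison of the knockouts with each other shares the knockout samples with them. In the knockouts the collagens moved in both directions. Col18a1 rose and Col4a5, Col8a1, Col8a2 and Col16a1 fell in conventional knockouts at 9 weeks. In SPF knockouts at 12 weeks, Col18a1, Col1a1, Col4a1 and Col4a2 were higher than in wild types. There 10 chains were lower, among them Col4a5, Col8a1, Col23a1, Col12a1 and Col6a3. Of the 42 genes, 19 (45.2%) were called in at least 1 of the 9 comparisons between kinds of mice, the same share as the 45.2% of all genes, and 16 of the 19 were among the 23 genes with a group mean above the overall median.

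At 7 weeks, limma called 0 of 42 collagen genes in all 3 comparisons. In conventional knockouts against wild types 0.506% of all genes were called, and at an unadjusted p under 0.05 the collagens split into 0 higher and 3 lower. In SPF knockouts against wild types 0.055% of all genes were called, with 0 collagens higher and 5 lower at that level. Here 34 of 42 differences were negative, with a median of -0.15, against 0.01 for all genes. Between conventional and SPF knockouts 0.269% of all genes were called, with 1 collagen higher and 0 lower at the unadjusted level, Col5a3 at 0.70 ± 0.18 (adjusted p = 0.192).

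At 9 weeks, 7 of 42 collagens (16.7%) were called in conventional knockouts against wild types, 2 higher and 5 lower, with 24% of all genes called (14.2% higher and 9.86% lower). The median difference was -0.01 for collagens and 0.00 for all genes. SPF knockouts against wild types gave 0 higher and 5 lower (11.9%), with 11.8% of all genes called (7.41% higher and 4.43% lower). Conventional against SPF knockouts gave 0 calls of 42 by limma (unadjusted p under 0.05 in 2, both higher), with 0% of all genes called. Without conventional knockout replicate 1 or wild-type replicate 1 at 9 weeks, the first count was 4. The count for SPF knockouts was 0 without SPF knockout replicate 3 or wild-type replicate 2, 1 without wild-type replicate 1 and 2 without wild-type replicate 3.

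At 12 weeks, conventional knockouts against wild types gave 1 call, Col1a1, which was higher, with 0.451% of all genes called (0.264% higher and 0.187% lower). SPF knockouts against wild types gave 14 (33.3%), 4 higher and 10 lower, near the 34.8% of all genes (18.2% higher and 16.6% lower). Conventional against SPF knockouts gave 12 (28.6%), 11 higher and 1 lower, with 24.6% of all genes called. Higher calls were 26.2% of collagens and 11.1% of all genes, and lower calls 2.38% and 13.6%. The median difference in that comparison was 0.23 for collagens and 0.01 for all genes. Without SPF knockout replicate 1 or 3 at 12 weeks the counts were 9 and 8 against wild types, and 6 and 4 for conventional against SPF knockouts. When the spread was estimated only from the arrays of the groups compared, 5 calls were left for SPF knockouts against wild types and 0 for conventional against SPF knockouts, where 15 collagens were at an unadjusted p under 0.05.

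**Figure D1:**
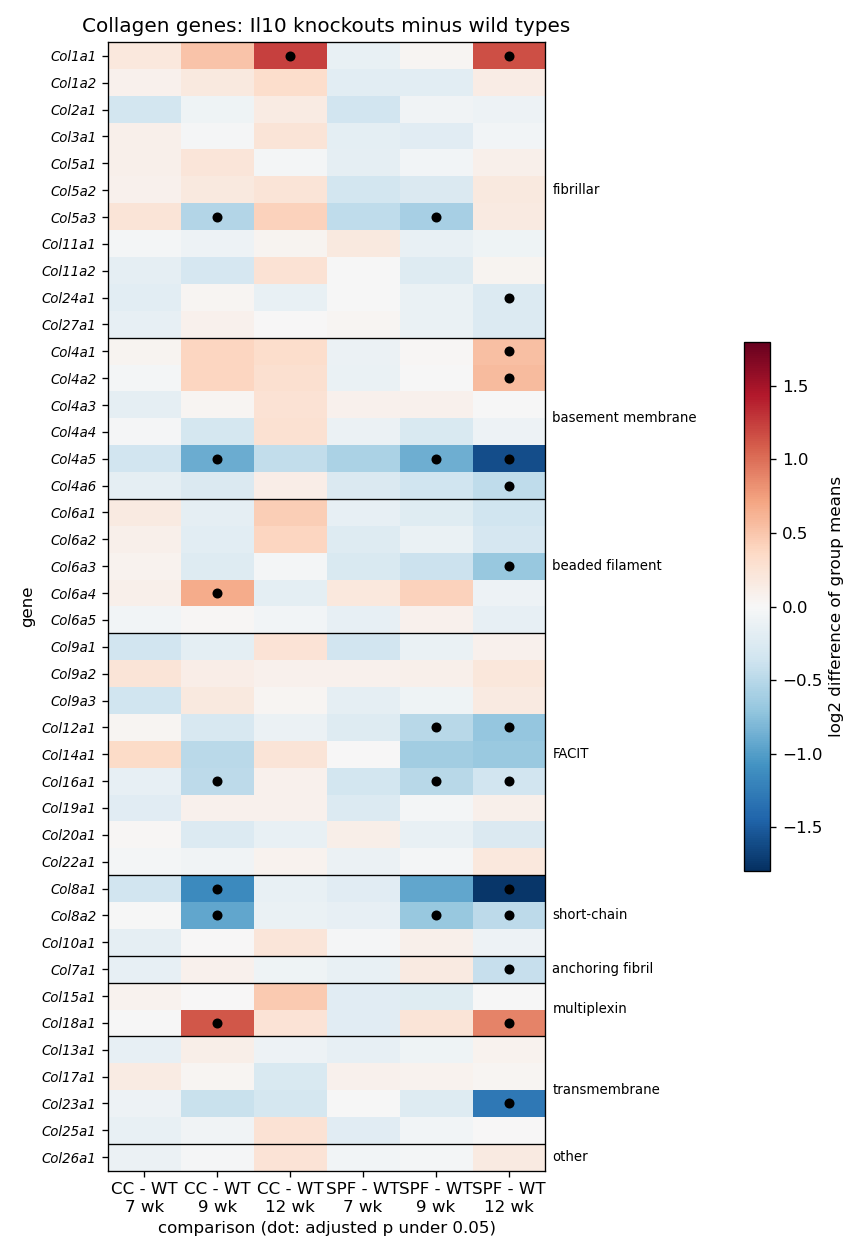
Log2 differences from wild types of all 42 collagen genes (rows, by family) in conventional (CC) and SPF Il10 knockouts at 7, 9 and 12 weeks. Red is higher and blue lower in the knockouts, and dots mark adjusted p under 0.05. Col8a1 at -1.75 and Col4a5 at -1.60 in 12-week SPF knockouts are the deepest blue cells, and no cell of the 7-week columns has a dot.

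**Figure D2:**
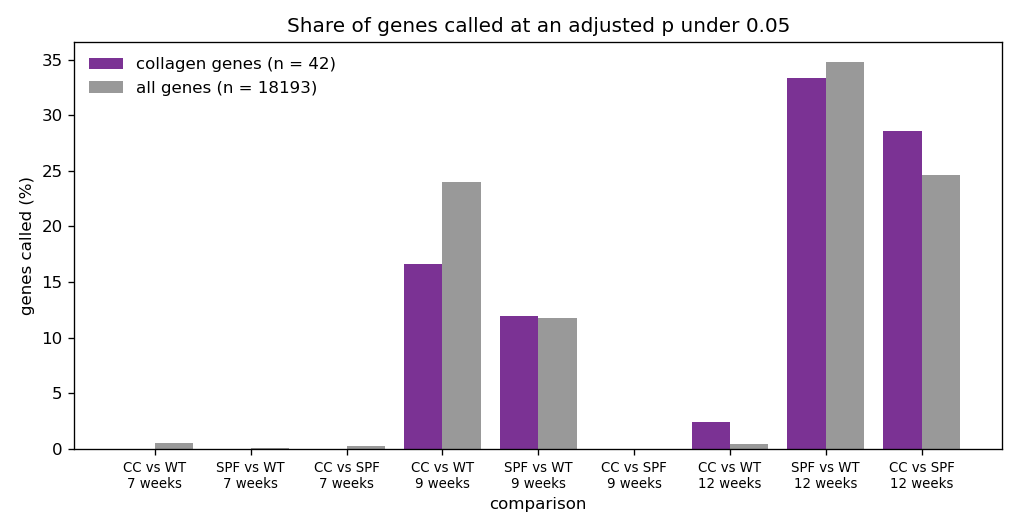
Percent of the 42 collagen genes and of all 18193 genes called at an adjusted p under 0.05, by comparison. The bars start at 0. At 9 weeks in CC against WT the collagen share was 16.7% against 24% of all genes, and at 12 weeks in SPF against WT 33.3% against 34.8%.

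Type XVIII, a basement membrane proteoglycan whose end fragment is endostatin, had the largest positive difference among the collagens at 9 weeks. Col18a1 read 7.91, 8.52 and 7.80 in conventional knockouts, against 6.85, 7.01 and 7.03 in wild types. All 3 knockout arrays lay above all 3 wild-type arrays, by 1.11 ± 0.21 or 2.17-fold (adjusted p = 0.000991). The call held in each of the 27 fits that left out 1 array, with differences of 0.89 to 1.25. SPF knockouts of that age read 7.01, 7.17 and 7.39, and neither their difference from wild types (0.23 ± 0.21) nor that of conventional from SPF knockouts (0.89 ± 0.21, adjusted p = 0.170) passed the test.

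At 12 weeks the high Col18a1 values were in the SPF knockouts, at 8.05, 7.00 and 8.09, against 6.80, 6.63 and 7.04 in wild types. Replicates 1 and 3 were high and replicate 2 lay within the wild-type range, and the difference was 0.89 ± 0.21 (adjusted p = 0.00257). Conventional knockouts read 6.97, 6.93 and 7.30, and their difference from the SPF knockouts was -0.64 ± 0.21 (adjusted p = 0.0305). That call was lost without conventional knockout replicate 1 or 2 or SPF knockout replicate 1 or 3, and without SPF knockout replicate 2 the difference was -0.999. The change of the difference between conventional and SPF knockouts, at 12 against 9 weeks, was itself called at -1.53 ± 0.30 (adjusted p = 0.00269). In that test 6 of 42 collagens were called, 5 higher and 1 lower, with 18.6% of all genes (7.93% higher and 10.7% lower). The count was 1 without replicate 1 of the 9-week conventional, 9-week SPF or 12-week SPF knockouts, 10 without 12-week SPF knockout replicate 2, and 0 with the spread of the arrays compared alone (10 at an unadjusted p under 0.05). The second Col18a1 probe set was called in the same direction at 9 weeks in conventional knockouts (1.23) and at 12 weeks in SPF knockouts (1.19) against wild types.

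Col15a1, the other multiplexin, lies in basement membranes of vessels and muscle. At 12 weeks it read 6.47, 6.53 and 6.58 in conventional knockouts, against 6.29, 5.99 and 5.89 in SPF knockouts. These groups did not overlap, at 0.47 ± 0.16 (adjusted p = 0.0362). Wild types read 6.03, 5.87 and 6.28, also below all conventional knockouts, without a call (adjusted p = 0.161). The call between the knockouts was lost without any 1 of conventional knockout replicates 1, 2 and 3 or of SPF knockout replicates 2 and 3.

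Type IV chains form the basement membrane network. In 12-week SPF knockouts Col4a5 and Col4a6 were lower, and Col4a1 and Col4a2 higher, than in wild types. Col4a5, which pairs with Col4a6 in the basement membrane of smooth muscle, read 6.51, 7.36 and 7.30 in 9-week conventional knockouts, against 8.04, 7.79 and 8.03 in wild types. Every knockout array lay below every wild-type array, and Col4a5 fell by 0.89 on the log2 scale (SE 0.25, adjusted p = 0.0115). Without conventional knockout replicate 1, the lowest, the difference was -0.62 and the call was lost. SPF knockouts at 9 weeks, at 7.10, 7.33 and 6.79, were also all below the wild types (-0.87 ± 0.25, adjusted p = 0.0260), a call lost without SPF knockout replicate 3 or any 1 of the 3 wild-type arrays.

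In 12-week SPF knockouts Col4a5 had its lowest group mean of the series, with values of 5.52, 6.77 and 6.35, against 7.64, 8.16 and 7.65 in wild types. The difference of -1.60 ± 0.25 was 3.04-fold (adjusted p = 9.25e-05) and was called in every fit that left out 1 array, at -1.88 to -1.26. Conventional knockouts of that age read 7.19, 7.60 and 7.31, above all 3 SPF knockout arrays by 1.16 ± 0.25 (adjusted p = 0.00330), and -0.45 ± 0.25 from wild types without a call. The second Col4a5 probe set was called lower in 12-week SPF knockouts against wild types, at -0.59, but not at 9 weeks in conventional knockouts (-0.40) or SPF knockouts (-0.47). In conventional against SPF knockouts at 12 weeks it had the same sign as the probe set used, but was not called.

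Col4a6 read 4.74, 4.93 and 4.79 in 12-week SPF knockouts, against 5.52, 4.85 and 5.45 in wild types. Only wild-type replicate 2 overlapped the knockouts, and Col4a6 fell by 0.45 on the log2 scale (SE 0.16, adjusted p = 0.0297), a call lost without SPF knockout replicate 1 or 3 or wild-type replicate 1 or 3. Conventional knockouts, at 5.44, 5.41 and 5.34, were all above the SPF knockouts (0.58 ± 0.16, adjusted p = 0.0114). Without SPF knockout replicate 1 or 3 this call too was lost. The second Col4a6 probe set was called lower in 12-week SPF knockouts against wild types, but was not called between the knockouts.

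Col4a1 and Col4a2 are the head-to-head pair that makes the common type IV network. At 12 weeks Col4a1 read 10.70, 9.99 and 10.63 in SPF knockouts and 10.05, 10.24 and 10.33 in conventional knockouts, against 9.81, 9.85 and 10.03 in wild types. Replicate 2 of the SPF knockouts lay within the wild-type range, and their difference from wild types was 0.54 ± 0.17 (adjusted p = 0.0140). Col4a2 read 9.17, 8.26 and 9.01 in SPF knockouts and 8.26, 8.53 and 8.81 in conventional knockouts, against 8.35, 7.98 and 8.41 in wild types, with the same array low. The Col4a2 difference of SPF knockouts from wild types was 0.57 ± 0.20 (adjusted p = 0.0277). Without SPF knockout replicate 1 or 3 both calls were lost, and without wild-type replicate 2 that of Col4a2. The 12-week wild types had the lowest group mean of the series for both chains. For Col4a1 it was 9.90, against 10.34 and 10.20 in 7- and 9-week wild types, and for Col4a2 8.25, against 8.79 and 8.64. These changes had no call. From 7 to 12 weeks the SPF knockouts changed by 0.21 ± 0.17 (Col4a1) and 0.14 ± 0.20 (Col4a2), without a call.

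At 9 weeks Col4a1 read 10.39, 10.95 and 10.41 in conventional knockouts and 10.28, 10.32 and 10.09 in SPF knockouts, against 10.04, 10.22 and 10.35 in wild types. Col4a2 read 8.75, 9.43 and 8.91 in conventional knockouts and 8.67, 8.65 and 8.58 in SPF knockouts, against 8.51, 8.67 and 8.74 in wild types. Conventional knockout replicate 2 was the highest array for both chains, and neither was called at this age. Col4a3 and Col4a4, chains known from the kidney glomerulus, stayed among the low genes with no call between kinds of mice.

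Type VIII, a short-chain collagen that forms hexagonal networks around vessels and smooth muscle, includes the largest fall among the 42 genes. Col8a1 at 12 weeks read 5.82, 7.02 and 6.13 in SPF knockouts, against 8.36, 8.48 and 7.39 in wild types. All 3 knockout arrays were below all wild-type arrays, with a difference of -1.75 ± 0.37 or 3.37-fold (adjusted p = 0.000954), and the range without 1 array was -2.10 to -1.50, called each time. Conventional knockouts read 7.34, 7.82 and 8.67, which spans the wild-type values, and lay above every SPF knockout array by 1.62 ± 0.37 (adjusted p = 0.00440).

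At 9 weeks Col8a1 read 6.73, 6.87 and 6.95 in conventional knockouts and 7.79, 7.21 and 6.19 in SPF knockouts, against 7.90, 7.81 and 8.30 in wild types. The conventional knockouts were tight and all below the wild types, with a difference of -1.15 ± 0.37 (adjusted p = 0.0259), and the SPF knockouts ran wide, at -0.94 without a call. The call for conventional knockouts was lost without their replicate 1 or 2, without wild-type replicate 1 or 3, and when the 3 probe sets of the gene were averaged. The other 2 probe sets gave -0.76 and -0.42 there, and neither was called. Their means over the arrays were 5.87 and 3.86, the second of them low.

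Col8a2, the partner chain, was among the low genes, so its values lie near the bottom of the scale. It read 2.75, 3.03 and 2.88 in 9-week conventional knockouts and 3.20, 3.22 and 3.01 in 9-week SPF knockouts, against 4.04, 3.83 and 3.59 in wild types. Both knockout groups lay wholly below the wild types, with a difference of -0.93 ± 0.18 for conventional (adjusted p = 0.00114) and -0.68 ± 0.18 for SPF knockouts (adjusted p = 0.0199). The call for conventional knockouts held without any 1 array, and that for SPF knockouts was lost without SPF knockout replicate 3 or wild-type replicate 1 or 2. In 12-week SPF knockouts Col8a2 read 2.84, 3.45 and 2.86, against 3.27, 3.55 and 3.74 in wild types, overlapping in 1 array (-0.47 ± 0.18, adjusted p = 0.0482). This call lay at the threshold and was kept in 10 of the 27 fits without 1 array.

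**Figure D3:**
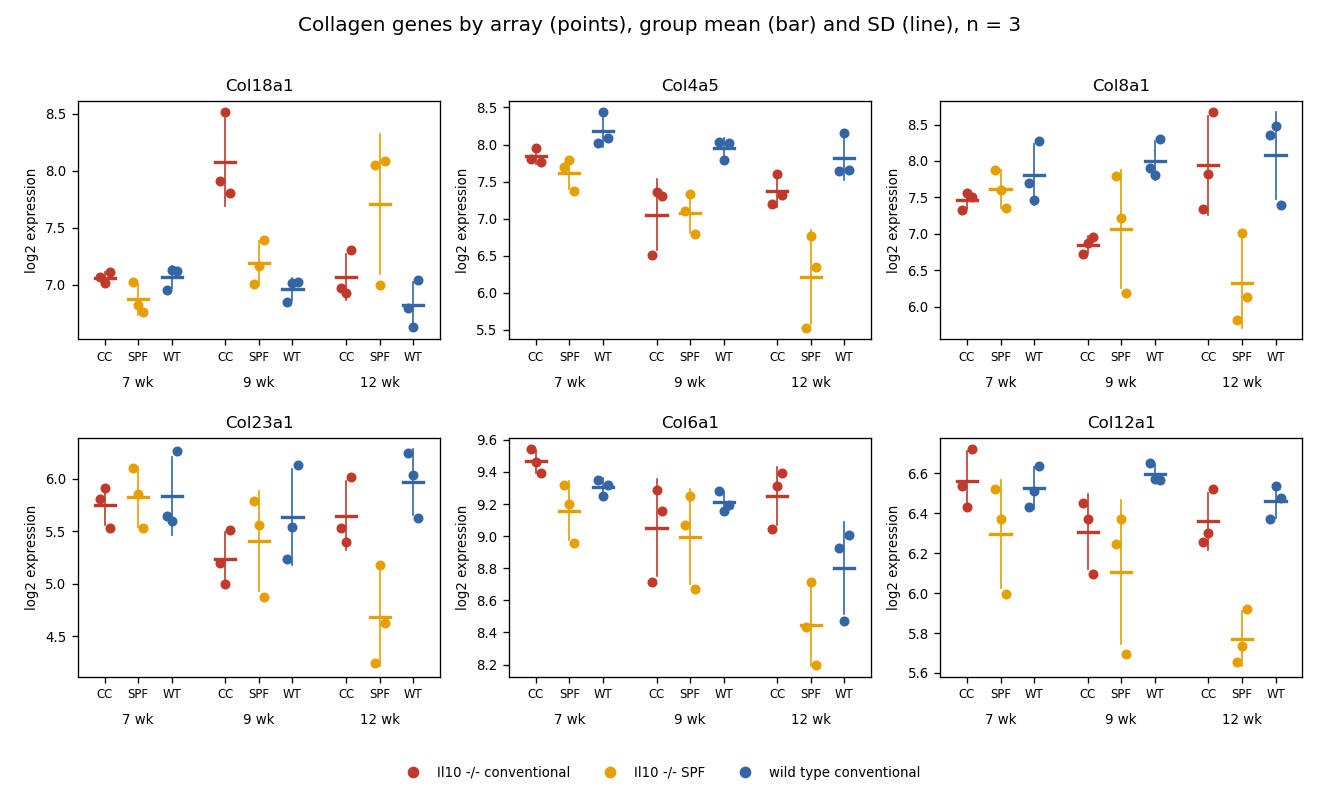
Log2 expression of Col18a1, Col4a5, Col8a1, Col23a1, Col6a1 and Col12a1 in each array, by age and kind of mice (CC, SPF, WT). Points are arrays, bars group means and lines SD (n = 3). Col18a1 is high in 9-week CC arrays and in 2 of 3 12-week SPF arrays, and the other 5 genes have their lowest group means in 12-week SPF knockouts.

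Type VI forms the beaded filaments between cells and the fibrillar matrix, from Col6a1, Col6a2 and a further chain such as Col6a3. At 12 weeks Col6a1 read 9.05, 9.31 and 9.40 in conventional knockouts and 8.44, 8.71 and 8.20 in SPF knockouts, against 8.92, 8.47 and 9.01 in wild types. The conventional knockouts were above all SPF knockouts, by 0.80 ± 0.17 (adjusted p = 0.00299), and the wild-type mean lay between, with arrays that overlapped the SPF knockouts. Neither knockout differed from wild types past the threshold (0.45 ± 0.17 for conventional and -0.35 ± 0.17 for SPF).

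Col6a2 read 9.46, 9.73 and 9.85 in conventional knockouts and 8.89, 9.16 and 8.92 in SPF knockouts, against 9.32, 9.02 and 9.53 in wild types. The same order held, with conventional above SPF knockouts by 0.69 ± 0.18 (adjusted p = 0.00895). Col6a3 read 8.66, 9.02 and 9.23 in conventional knockouts and 8.16, 8.52 and 8.27 in SPF knockouts, against 8.78, 9.16 and 9.07 in wild types. SPF knockouts were below wild types (-0.68 ± 0.18, adjusted p = 0.00475), and conventional above SPF knockouts (0.65 ± 0.18, adjusted p = 0.0110). The calls between knockouts were lost for Col6a2 without SPF knockout replicate 3, and for Col6a3 without conventional knockout replicate 3 or SPF knockout replicate 1 or 3.

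At 9 weeks the 3 chains had no call. Col6a1 was 8.71, 9.29 and 9.16 in conventional knockouts and 9.07, 9.25 and 8.67 in SPF knockouts, against 9.28, 9.16 and 9.20 in wild types, with knockouts spread more widely than wild types. Col6a4, another chain able to take the place of Col6a3 in mice, read 5.56, 6.26 and 6.15 in 9-week conventional knockouts, against 5.21, 5.29 and 5.46 in wild types. It rose by 0.67 ± 0.22 (adjusted p = 0.0284), a call lost without conventional knockout replicate 2 or 3 or wild-type replicate 1 or 2, and when its probe sets were averaged.

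Among the fibril-associated collagens, Col16a1 is found in the smooth muscle and connective tissue of the gut. Col16a1 was lower than in wild types in both knockouts at 9 weeks, and in SPF knockouts only at 12 weeks. It read 6.81, 6.97 and 6.69 in conventional knockouts and 6.92, 6.96 and 6.50 in SPF knockouts at 9 weeks, against 7.29, 7.39 and 7.18 in wild types. Neither knockout group overlapped the wild types, at -0.47 ± 0.12 for conventional (adjusted p = 0.00651) and -0.49 ± 0.12 for SPF knockouts (adjusted p = 0.0108). The call of the conventional knockouts held without any 1 array, and that of the SPF knockouts was lost without SPF knockout replicate 3 or wild-type replicate 2. At 12 weeks it read 7.06, 7.02 and 7.12 in conventional knockouts and 6.52, 6.85 and 6.57 in SPF knockouts, against 6.93, 6.89 and 7.17 in wild types. SPF knockouts were below both, with a difference of -0.35 ± 0.12 from wild types (adjusted p = 0.0242), and conventional were above SPF knockouts by 0.42 ± 0.12 (adjusted p = 0.0125). Without SPF knockout replicate 1 or 3 both of these calls were lost, and without wild-type replicate 3 the first. Conventional knockouts differed from wild types by 0.07 ± 0.12 at 12 weeks, without a call. At 7 weeks the SPF knockout arrays all lay below the wild-type arrays, at -0.34 ± 0.12, also without a call.

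Col12a1, which binds type I fibrils in tissue under load, read 6.25, 6.30 and 6.52 in conventional knockouts and 5.66, 5.74 and 5.92 in SPF knockouts at 12 weeks, against 6.37, 6.54 and 6.48 in wild types. The SPF arrays lay apart from both other groups, at -0.69 ± 0.15 from wild types (adjusted p = 0.00124) and with conventional above SPF knockouts by 0.59 ± 0.15 (adjusted p = 0.00787). At 9 weeks SPF knockouts, at 6.25, 6.37 and 5.69, were below wild types at 6.65, 6.57 and 6.57 (-0.49 ± 0.15, adjusted p = 0.0363), and without replicate 3 the difference was -0.29 and not called. That call was also lost without any 1 wild-type array of that age and with the spread of the arrays compared alone. The other 3 Col12a1 probe sets were called in none of these comparisons, with differences of 0.03, 0.15 and -0.06 in 12-week SPF knockouts against wild types, so the fall rests on 1 probe set. Their means over the arrays were 5.89, 2.76 and 2.91. The probe sets at 2.76 and 2.91 lie near the lowest value of the series, 2.1, and can say little about a fall. All 3 Col12a1 calls between kinds of mice were also lost when the probe sets were averaged. Col14a1, a relative of Col12a1, had no call and varied widely within groups, for example 5.08, 6.72 and 5.39 in 12-week SPF knockouts against 5.92, 6.78 and 6.49 in wild types.

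The transmembrane collagen Col23a1 read 4.25, 5.18 and 4.63 in 12-week SPF knockouts and 5.53, 5.40 and 6.02 in conventional knockouts, against 6.24, 6.03 and 5.63 in wild types. Every SPF array was below every array of both other groups. The difference from wild types was -1.28 ± 0.27 (adjusted p = 0.00103), and conventional were above SPF knockouts by 0.96 ± 0.27 (adjusted p = 0.0133). All 3 Col23a1 probe sets were called in both comparisons with the same signs, and the second call was lost without conventional knockout replicate 3 or SPF knockout replicate 1 or 3. Col7a1, the anchoring fibril under the epithelium and one of the low genes, read 4.46, 4.41 and 4.35 in SPF knockouts and 4.86, 4.59 and 4.79 in conventional knockouts, against 4.66, 4.79 and 5.02 in wild types. It fell by 0.42 on the log2 scale in SPF knockouts (SE 0.12, adjusted p = 0.00782), and was 0.34 ± 0.12 higher in conventional than in SPF knockouts (adjusted p = 0.0375). The first call was lost without wild-type replicate 3. The second was lost without any 1 of the 3 SPF knockout arrays, without conventional knockout replicate 1 or 3, and after centring each array on its median.

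Of the 11 fibrillar genes, 1 was called lower in each knockout at 9 weeks, and at 12 weeks 1 was called higher in conventional knockouts and 1 higher and 1 lower in SPF knockouts. Col3a1, the type III chain of distensible tissue, read 12.09 to 12.60 in 12-week SPF knockouts and 12.55 to 12.64 in conventional knockouts, against 12.31 to 12.44 in wild types. The conventional knockouts lay above the wild types, but Col3a1 had no call in any of the 20 comparisons. In 9-week conventional knockouts it read 12.43, 13.03 and 12.27, against 12.62, 12.56 and 12.60 in wild types. Replicate 2 of that knockout group was also the highest for Col1a1 and Col1a2. Col5a1 and Col5a2, the type V chains that start fibrils, had no call either, with differences between kinds of mice of -0.17 to 0.27 for Col5a1 and -0.34 to 0.44 for Col5a2. Col5a3, the minor type V chain, read 5.05, 5.56 and 5.04 in conventional knockouts and 5.15, 5.33 and 4.94 in SPF knockouts at 9 weeks, against 5.69, 5.70 and 5.83 in wild types. It fell in both, with a difference of -0.52 ± 0.18 for conventional (adjusted p = 0.0405) and -0.60 ± 0.18 for SPF knockouts (adjusted p = 0.0360). Both calls were lost without any 1 of the wild-type arrays or without replicate 1 or 3 of the knockout group compared.

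Col1a1, the main type I chain, was the 1 collagen called in conventional knockouts against wild types at 12 weeks. It read 8.74, 8.90 and 9.07 in conventional knockouts and 8.90, 8.67 and 8.94 in SPF knockouts, against 8.24, 7.02 and 7.76 in wild types. The wild-type arrays were low and scattered, and both knockout groups lay wholly above them, conventional knockouts by 1.23 ± 0.25 (adjusted p = 0.0332) and SPF knockouts by 1.16 ± 0.25 (adjusted p = 0.00108). At 7 and 9 weeks wild types read 8.82 to 9.17, and the difference of 12-week from 7-week wild types was -1.34 ± 0.25 (adjusted p = 0.0305). Replicate 2 of the 12-week wild types, the lowest, is the array with the largest actin difference between ends, and the part of RNA quality in these values was not tested.

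Without wild-type replicate 2 the Col1a1 difference of conventional knockouts was 0.90 and no longer called. The call was also lost without any 1 conventional knockout array of that age, when the 2 probe sets were averaged, and when the spread came only from the arrays compared. The call in SPF knockouts held without any 1 array, at 0.84 to 1.45, but was lost when the spread came only from the arrays compared. The second Col1a1 probe set gave 0.30 ± 0.19 in conventional knockouts, which was not called, and 0.59 ± 0.19 in SPF knockouts, which was. Col1a2, the partner chain of type I, read 9.61, 9.77 and 9.88 in conventional knockouts and 9.35, 9.53 and 9.83 in SPF knockouts at 12 weeks, against 9.34, 9.38 and 9.60 in wild types. Conventional knockouts lay just above wild types and SPF knockouts overlapped both, and Col1a2 was called in none of the 20 comparisons.

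**Figure D4:**
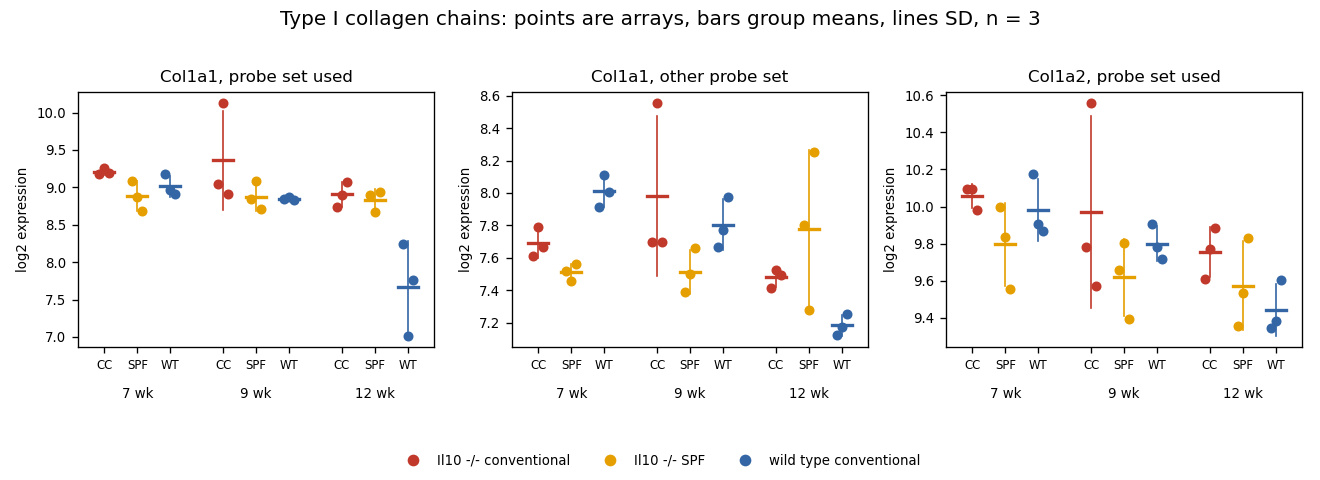
Log2 expression of both Col1a1 probe sets and of Col1a2 in each array, by age and kind of mice (points arrays, bars means, lines SD, n = 3). In the probe set used for Col1a1 the 12-week WT arrays lie at 7.02 to 8.24, below the other groups, and Col1a2 in the same arrays lies at 9.34 to 9.60. Levels of different probe sets are not comparable with each other.

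The 23 genes without a call between kinds of mice had differences of -0.67 to 0.90. They include all 3 chains of type IX, both type XI genes, and Col2a1, Col10a1, Col13a1, Col17a1, Col19a1, Col20a1, Col22a1, Col25a1, Col26a1 and Col27a1. Col24a1, a low fibrillar gene, was called at -0.25 ± 0.10 in 12-week SPF knockouts (adjusted p = 0.0477), but in only 7 of the 27 fits without 1 array. Of the 24 calls between kinds of mice in genes with further probe sets, no further probe set was called in the opposite direction. In 12 of the 24 no further probe set was called in the same direction, and in 3, all of Col12a1, at least 1 further probe set had the other sign. Some further probe sets were low, such as those of Col5a3 (mean 3.05) and Col6a4 (3.28), so a missing call there decides little. Others, such as that of Col4a5 (5.64), were not low.

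With age, at 12 against 7 weeks, 10 of 42 collagens (23.8%) were called in SPF knockouts, 1 higher and 9 lower, with 27.9% of all genes called (13.8% higher and 14.1% lower). Col4a5 fell by 1.40 (SE 0.25, adjusted p = 0.000621), Col8a1 by 1.29 (SE 0.37), Col23a1 by 1.14 (SE 0.27) and Col6a1 by 0.71 (SE 0.17) on the log2 scale, and Col18a1 rose by 0.84 (SE 0.21). Col6a2, Col12a1, Col16a1, Col27a1 and Col4a6 fell by 0.41 to 0.54. In wild types the same differences were -0.51 for Col6a1, -0.47 for Col6a2 and -0.41 for Col16a1. For Col4a5, Col4a6, Col18a1, Col27a1 and Col12a1 they were -0.37, -0.28, -0.25, -0.13 and -0.06, and for Col23a1 and Col8a1 0.13 and 0.26. None of these was called in wild types, and SPF knockout and wild-type changes from 7 to 12 weeks were not tested against each other. The SPF knockout count was 5 without replicate 2 at 7 weeks or replicate 1 at 12 weeks. It was 4 without replicate 3 and 16 without replicate 2 at 12 weeks. With the spread of the arrays compared alone it was 0 (15 at an unadjusted p under 0.05). At 12 against 9 weeks 0 were called by limma, with 0% of all genes (unadjusted p under 0.05 in 2 higher and 7 lower). Without replicate 2 of the 12-week group the count was 8, and without replicate 3 of the 9-week group 6.

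In conventional knockouts at 9 against 7 weeks 4 of 42 were called, with 10.4% of all genes (5.34% higher and 5.1% lower): Col18a1 rose by 1.02 ± 0.21 (adjusted p = 0.00566), and Col8a2 (-0.79 ± 0.18), Col16a1 (-0.44 ± 0.12) and Col4a5 (-0.78 ± 0.25) fell. The count was 1 without conventional knockout replicate 1 of either age, and 2 without replicate 2 or 3 at 7 weeks. At 12 against 9 weeks 2 were called, with 7.34% of all genes (1.94% higher and 5.4% lower): Col18a1 fell by 1.01 (SE 0.21, adjusted p = 0.00892), and the low Col4a4 was higher by 0.44 ± 0.13 (adjusted p = 0.0432). The Col18a1 call was lost without conventional knockout replicate 2 at 9 weeks, the highest array, and the count was 6 without SPF knockout replicate 2 at 12 weeks. Col4a4 was called in 16 of the 27 fits without 1 array. At 12 against 7 weeks 0 were called, with 0% of all genes (unadjusted p under 0.05 in 4, all higher). Wild types gave 1 call at 12 against 7 weeks, Col1a1, with 0.121% of all genes (0.0275% higher and 0.0934% lower), and 0 at 12 against 9 weeks, with 0% of all genes (unadjusted p under 0.05 in 5, all lower). The Col1a1 call was lost without any 1 wild-type array of 7 weeks or without replicate 2 or 3 of 12 weeks.

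Changes of the differences over age were tested directly. From 9 to 12 weeks, the difference of conventional from wild-type mice changed in 0 collagens by limma (unadjusted p under 0.05 in 8 higher and 2 lower), with 1.82% of all genes called, and that of SPF knockouts in 0 (5 higher and 3 lower), with 0% of all genes. Without 12-week SPF knockout replicate 2 these counts were 4 and 6. From 7 to 9 weeks the difference of conventional from wild-type mice changed in 0 (2 higher and 2 lower), with 2.01% of all genes. The calls at 1 age and not at another are not shown to differ between ages for either knockout against wild types.

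Genes that make, fold and crosslink collagen were read beside the chains. The counts of these and the following lists stand against 24% of all genes called in 9-week conventional knockouts and 34.8% in 12-week SPF knockouts, each against wild types. Of 27 measured, 4 rose and 1 fell in 9-week conventional knockouts (18.5% called), and 6 rose and 2 fell in 12-week SPF knockouts (29.6%), both shares below those of all genes, with a median difference of 0.14 in the 9-week and 0.02 in the 12-week comparison. Tgm2, a transglutaminase that crosslinks matrix proteins, rose by 1.497 ± 0.259 in 9-week conventional knockouts (adjusted p = 0.000481) and by 1.57 ± 0.26 in 12-week SPF knockouts (adjusted p = 0.000156). Plod3, a lysyl hydroxylase and glycosyltransferase of collagen, rose by 0.86 ± 0.14 in 12-week SPF knockouts, and P3h4, of the lysyl hydroxylation complex, fell at -0.54 in 9-week conventional and -0.67 in 12-week SPF knockouts. Conventional knockouts at 12 weeks had 0 of 27 called against wild types by limma (unadjusted p under 0.05 in 3, all higher), with 0.451% of all genes called.

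Among 13 proteases and inhibitors that act on collagen, 4 rose and 1 fell in 9-week conventional knockouts (38.5%), and 5 rose and 2 fell in 12-week SPF knockouts (53.8%). The interstitial collagenase Mmp13 rose by 2.49 ± 0.55 in 9-week conventional knockouts (adjusted p = 0.00304) and by 3.68 ± 0.55 in 12-week SPF knockouts (adjusted p = 7.91e-05). Mmp14, a membrane collagenase, rose by 0.70 ± 0.15 in 9-week conventional and 0.83 ± 0.15 in 12-week SPF knockouts. Timp1, a metalloproteinase inhibitor, rose by 1.63 ± 0.46 in the 9-week conventional and 2.37 ± 0.46 in the 12-week SPF group. Of 10 collagen receptors, 3 rose and 1 fell in 9-week conventional knockouts, and 1 rose and 3 fell in 12-week SPF knockouts (40% in both), the second close to the share of all genes. Lair1, an inhibitory receptor of leukocytes, rose by 1.42 in 9-week conventional and 1.28 in 12-week SPF knockouts. Ddr1, an epithelial collagen receptor kinase, was at -0.57 in 9-week conventional and -0.48 in 12-week SPF knockouts, both called. Ddr2, its counterpart on mesenchymal cells, fell by 0.91 on the log2 scale in 12-week SPF knockouts.

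Of 28 other matrix proteins, 1 rose and 2 fell in 9-week conventional knockouts (10.7%, below the 24% of all genes), and 4 rose and 6 fell in 12-week SPF knockouts (35.7%, close to the 34.8% of all genes). Lama1, a laminin chain of basement membranes, rose by 1.22 ± 0.19 both in 9-week conventional knockouts (adjusted p = 0.000195) and in 12-week SPF knockouts (adjusted p = 9.38e-05). Its mean over the arrays was low, at 3.96, below the overall median of 4.96. Postn, a fibrillar matrix organizer, fell by 1.12 in 9-week conventional knockouts and by 1.53 in 12-week SPF knockouts on the log2 scale. Thbs2, a matricellular protein, fell by 0.58 in 9-week conventional knockouts and by 0.71 in 12-week SPF knockouts. Of 16 TGF-beta genes, 3 rose and 2 fell in 9-week conventional knockouts (31.2%), and 2 rose and 2 fell in 12-week SPF knockouts (25%, below the share of all genes). Tgfb1 rose by 0.92 in 9-week conventional and 1.55 in 12-week SPF knockouts, and Tgfb2 was lower at -0.60 in 9-week conventional and -0.66 in 12-week SPF knockouts.

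Markers of cell types moved in the same groups as the collagens. In bulk tissue, fewer cells of a type and less RNA per cell cannot be told apart. Of 10 smooth muscle markers, 0 rose and 10 fell in 12-week SPF knockouts (median -1.05), 7 fell in 9-week conventional knockouts and 3 in 9-week SPF knockouts. In 9-week SPF knockouts 4.43% of all genes were called lower. In conventional against SPF knockouts at 12 weeks 9 of the 10 markers were higher, with 11.1% of all genes called higher. The mean of the list was 9.02 to 10.24 in 12-week SPF knockouts and 10.33 to 10.79 in conventional knockouts, against 10.61 to 10.73 in wild types. At 9 weeks it was 10.15 to 10.22 in conventional knockouts and 9.80 to 10.49 in SPF knockouts, against 10.80 to 10.90 in wild types. Myh11, smooth muscle myosin, fell by 1.51 on the log2 scale in 12-week SPF knockouts. The part of smooth muscle in the falls of Col4a5, Col8a1, Col16a1 and the other chains was not tested.

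Of 9 macrophage and monocyte markers, 8 rose in 9-week conventional knockouts and 8 in 12-week SPF knockouts. At 12 weeks 7 of the 9 were lower in conventional than in SPF knockouts, with 13.6% of all genes called lower. The mean of the 9 markers was 7.62 to 8.67 in 12-week SPF knockouts and 7.13 to 7.32 in conventional knockouts, against 6.68 to 6.91 in wild types. At 9 weeks it was 7.83 to 8.30 in conventional knockouts, against 6.66 to 7.09 in wild types. Of 7 neutrophil markers, 4 rose in 9-week conventional knockouts and 6 in 12-week SPF knockouts. S100a8, a neutrophil calcium-binding protein, rose by 6.98 ± 1.12 in 9-week conventional and 7.35 ± 1.12 in 12-week SPF knockouts. The neutrophil mean was 5.74 to 6.75 in 9-week conventional knockouts, against 3.76 to 3.84 in wild types. These groups are those in which Col18a1 was high, and the part of inflammatory cells in its level was not tested. Of 9 fibroblast markers 1 fell in 9-week conventional knockouts and 3 in 12-week SPF knockouts. Gsn, an actin-severing protein, was called at -1.26 in 9-week conventional and -1.07 in 12-week SPF knockouts. The fibroblast mean was 7.72 to 7.98 in 12-week SPF knockouts, against 7.92 to 8.18 in wild types. In conventional knockouts against wild types at 12 weeks, limma called 0 of the smooth muscle, macrophage, neutrophil and fibroblast markers, and at an unadjusted p under 0.05 only 2 macrophage markers and 1 fibroblast marker were higher. Only 0.451% of all genes were called in that comparison. Of 10 endothelial markers, 1 rose in 9-week conventional knockouts, and 2 rose and 2 fell in 12-week SPF knockouts. Over the arrays the list mean was 3.73 to 4.10 for 6 mesothelial markers and 3.86 to 4.45 for 8 skeletal muscle markers. Of these, Upk1b (6.06) among the mesothelial and Acta1 (6.63) and Ckm (6.67) among the skeletal muscle markers had a mean above 4.96.

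**Figure D5:**
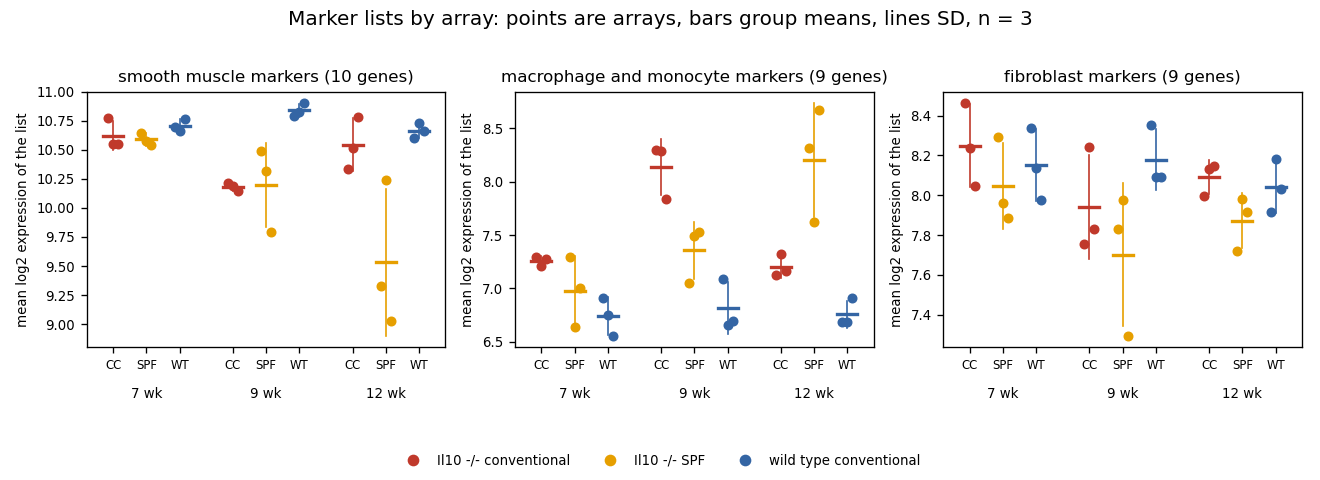
Mean log2 expression of 10 smooth muscle, 9 macrophage and monocyte and 9 fibroblast markers in each array, by age and kind of mice (points arrays, bars means, lines SD, n = 3). The 12-week SPF arrays span 9.02 to 10.24 for smooth muscle and 7.62 to 8.67 for macrophages, with replicate 2 nearest to the other groups in both.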

How the data were processed

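Total RNA of 27 full-thickness mouse colon samples was measured on 1-colour Affymetrix arrays. The authors deposited 1 normalized log2 value for each probe set and array, made with the affyPLM package per the series' design text. How affyPLM corrected background and summarized probes, and its version, is not given in the sources used here. The design text names a rat array, while the probe sets belong to a mouse array.

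Of 45101 probe sets, 64 controls, 9160 without a symbol and 932 with several were left out. The other 34945 gave 18193 genes, each read from its probe set with the highest mean. Samples were grouped by title. One model of 9 group means was fitted with limma 3.58.1 (lmFit and eBayes, R 4.3.3) and tested on simulated data. P-values are two-sided, with Benjamini-Hochberg adjustment over all genes of a comparison. Python 3.11.15 (pandas 2.3.3, NumPy 2.4.6) joined the tables and matplotlib 3.10.9 drew the figures.

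Alternatives were a replicate block, quantile normalization, centring, a filter on low genes, averaged probe sets, an intensity trend, only the arrays compared, each array left out, and, chosen after seeing the data, all probe sets that are not controls.

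Every collagen could be named. Values per array are given for up to 8 called collagens a comparison and for the main type I, III, IV and VI chains, and from other lists up to 4 called genes a comparison are named. Col14a1 and Col15a1 were singled out after their values were seen. Members and lists were chosen with earlier results of these data known.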

Additional observations from a re-analysis of the deposited data

Results flagged for a closer look

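For 6 collagens the difference between conventional and SPF knockouts changed between ages, by a test of the change itself at 12 against 9 weeks (limma, adjusted over all genes). These were 6 of 42 collagens, where 18.6% of all genes were called, and the count was 1 to 10 in fits without 1 array. Col18a1 changed by -1.53 ± 0.30 (adjusted p = 0.00269), and it was high in conventional knockouts at 9 weeks and in 2 of 3 SPF knockout arrays at 12 weeks. Col8a1 changed by 1.83 ± 0.52, Col4a5 by 1.18 ± 0.35, Col23a1 by 1.13 ± 0.38, Col6a2 by 0.76 ± 0.25 and Col6a1 by 0.75 ± 0.24, with adjusted p between 0.0187 and 0.0431. When the spread was taken from the 12 arrays compared alone, limma called 0 of the 6.

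Probe sets that were not used for their gene carried 3 calls without a call in the probe set used. A further Col27a1 probe set gave -0.76 ± 0.18 in 12-week SPF knockouts against wild types (adjusted p = 0.00281), and 0.60 ± 0.18 in conventional against SPF knockouts (adjusted p = 0.0243). A further Col25a1 probe set gave -0.61 ± 0.19 in 12-week SPF knockouts against wild types (adjusted p = 0.0219). Groups of 3 are too small for a test of single outlying arrays.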

How the results depend on the processing

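No collagen gene changed direction in any alternative while called. Of 62 calls of a gene in a comparison, 8 were kept in every alternative and 19 in all 27 fits without 1 array. With the spread taken from only the arrays compared, the count of called collagens was 1 for conventional against SPF knockouts at 7 weeks, 3 for SPF knockouts against wild types at 9 weeks, and, at 12 weeks, 0 for conventional knockouts against wild types (7 at an unadjusted p under 0.05), 5 for SPF knockouts against wild types and 0 for conventional against SPF knockouts (15). It was 0 at 12 against 7 weeks in SPF knockouts (15) and in wild types (9), and for the changes of a difference 3 (conventional from wild-type mice, 9 against 7 weeks), 1 (the same, 12 against 9 weeks) and 0 (conventional from SPF knockouts, 10). These fits use fewer samples. With averaged probe sets the count was 1 for conventional against SPF knockouts at 7 weeks, 0 at 12 weeks for conventional knockouts against wild types (8), 1 for conventional knockouts at 12 against 9 weeks and 1 for the change from 7 to 9 weeks. That last change was also 1 with quantile normalization, centring, the filter on low genes and the replicate block. The change of conventional from wild-type mice at 12 against 9 weeks was 1 with quantile normalization and with the filter. Conventional knockouts at 12 against 9 weeks gave 1 with the filter, the replicate block and all probe sets. Beyond these the cause was not tested.

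Without 1 array, counts ranged from 4 to 8 (conventional against wild types, 9 weeks), 0 to 5 (SPF against wild types, 9 weeks), 0 to 2 (conventional against wild types, 12 weeks), 8 to 16 (SPF against wild types, 12 weeks), 4 to 14 (conventional against SPF, 12 weeks), and 0 to 1 (conventional against SPF, 7 and 9 weeks). Over ages they ranged from 4 to 16 (SPF, 12 against 7 weeks), 0 to 8 (SPF, 12 against 9), 1 to 5 (conventional, 9 against 7), 0 to 6 (conventional, 12 against 9), 0 to 1 (wild types, 12 against 7) and 0 to 2 (wild types, 12 against 9). For changes of a difference they ranged from 0 to 2 (conventional from wild types, 9 against 7 weeks), 0 to 4 (the same, 12 against 9), 0 to 6 (SPF from wild types) and 1 to 10 (conventional from SPF).

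Samples were not treated as paired by replicate number: only 4 of 27 same-numbered pairs had deviations correlated over 0.1, with a range of -0.438 to 0.264. Pairs with different numbers were not read beside them, so this check cannot decide whether the numbers pair samples. With the replicate block the count for SPF knockouts against wild types at 12 weeks was 12.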
